A study of Mus musculus with 6 samples.

Results

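Collagens are the main structural proteins of the skin, and their genes were followed in whole skin of mice with added Hoxc13. The members were all array probe sets (groups of short probes read out as 1 value) whose gene symbol has the form Col, a number, the letter a and a number. This gave 44 of 12422 probe sets, for 31 of 8251 named genes. Of these, 37 probe sets for 26 genes were bright enough to be tested, and the other 5 genes are described by their values only. Total RNA of whole skin was measured on 6 single-sample arrays. The 3 FVB samples came from FVB mice, an albino inbred strain, and the 3 GC13 samples from a transgenic line that overexpresses Hoxc13, a homeobox gene active in hair follicles. All mice were 5 days old, when the hair coat is growing. The promoter behind the added Hoxc13, the number of founder lines, and whether GC13 mice have the FVB background or shared litters are not stated in the labels. Nor do the labels say that samples of 1 group are separate mice. The p-values then reflect the spread between these samples only, which may be technical. In the annotation used here no probe set carries the symbol Hoxc13, so the overexpressed gene was not analysed here.

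Collagen chains share long stretches in which glycine recurs at a fixed spacing, which lets the chains wind into a triple helix. Fibril-forming types I, III and V make the ropes of the dermis, and type VI makes beaded filaments between them. Type IV forms the sheet of basement membranes. In skin, type VII anchors the basement membrane to the dermis and type XVII, a transmembrane collagen, ties basal keratinocytes to it. Fibroblasts make most dermal collagen, while basal keratinocytes make types VII and XVII. Fewer cells of a type and less RNA per cell cannot be told apart in whole skin, and the same holds for more.

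No collagen gene passed the test of GC13 against FVB, and most lay above 0. The test was limma's, with Benjamini-Hochberg adjustment over all 9316 tested probe sets and a threshold of 0.05. It called 0 of 26 collagen genes and 0 of 37 collagen probe sets, beside 0.472% of all tested probe sets (8 higher, which is 0.0859%, and 36 lower). At an unadjusted p under 0.05, 12 of the 26 genes were higher in GC13 and 0 lower, beside 8.52% and 6.93% of all tested probe sets. The log2 fold change, always GC13 minus FVB, was above 0 for 24 of 26 genes, beside 57.4% of all tested probe sets. Its median over the genes was 0.54, beside 0.08 over all tested probe sets. In the deposited intensities, which are on a linear scale in arbitrary units, all GC13 arrays lay above all FVB arrays for 14 of 26 genes, beside 10.6% of all tested probe sets. After each array was centred on its median, this held for 17 of 26 genes, beside 14.6%. The 3 added by centring were Col7a1, Col9a2 and Col9a3. No gene had all GC13 arrays below all FVB arrays on either scale, beside 12.3% of all tested probe sets in the deposited intensities and 9.91% after centring.

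Signs of RNA quality differed between the groups, and 1 array stood apart. For Gapdh, control probe sets at both transcript ends give a 3′ to 5′ ratio that grows where 5′ ends are lost. It was 0.931, 0.958 and 0.894 on the FVB arrays. On GC13 replicates 1, 2 and 3 it was 2.22, 9.58 and 2.19 (exact two-sided permutation test, p = 0.1, the smallest that 3 against 3 arrays allow). The beta-actin ratio was 1.36, 1.26 and 1.16 for FVB, against 1.26, 3.8 and 1.43 for GC13 (exact two-sided permutation test, p = 0.2). The Y-linked gene Eif2s3y measured 69.4, 98.9 and 79.6 across FVB and 3.25, 143 and 4.6 across GC13, low on GC13 replicates 1 and 3 and not on the other arrays. The part of either in the collagen differences was not tested. Leaving out GC13 replicate 2 keeps only GC13 arrays with low Eif2s3y. In every result without replicate 2, the group and this Y-linked difference therefore cannot be told apart. Without GC13 replicate 2, 9 of 26 collagen genes passed as higher and 0 as lower in the limma test, beside 6% and 8.8% of all tested probe sets. These 9 were Col1a2, Col2a1, Col5a1, Col6a1, Col6a2, Col6a3, Col7a1, Col17a1 and Col26a1. The median over the 26 genes was then 0.53, close to the 0.54 with all arrays. Taken array by array against the FVB mean, the median over the collagen genes was 0.63, 0.48 and 0.45 on GC13 replicates 1, 2 and 3. The median over all tested probe sets was 0.07, 0.21 and -0.02 on the same arrays.

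**Figure D1:**
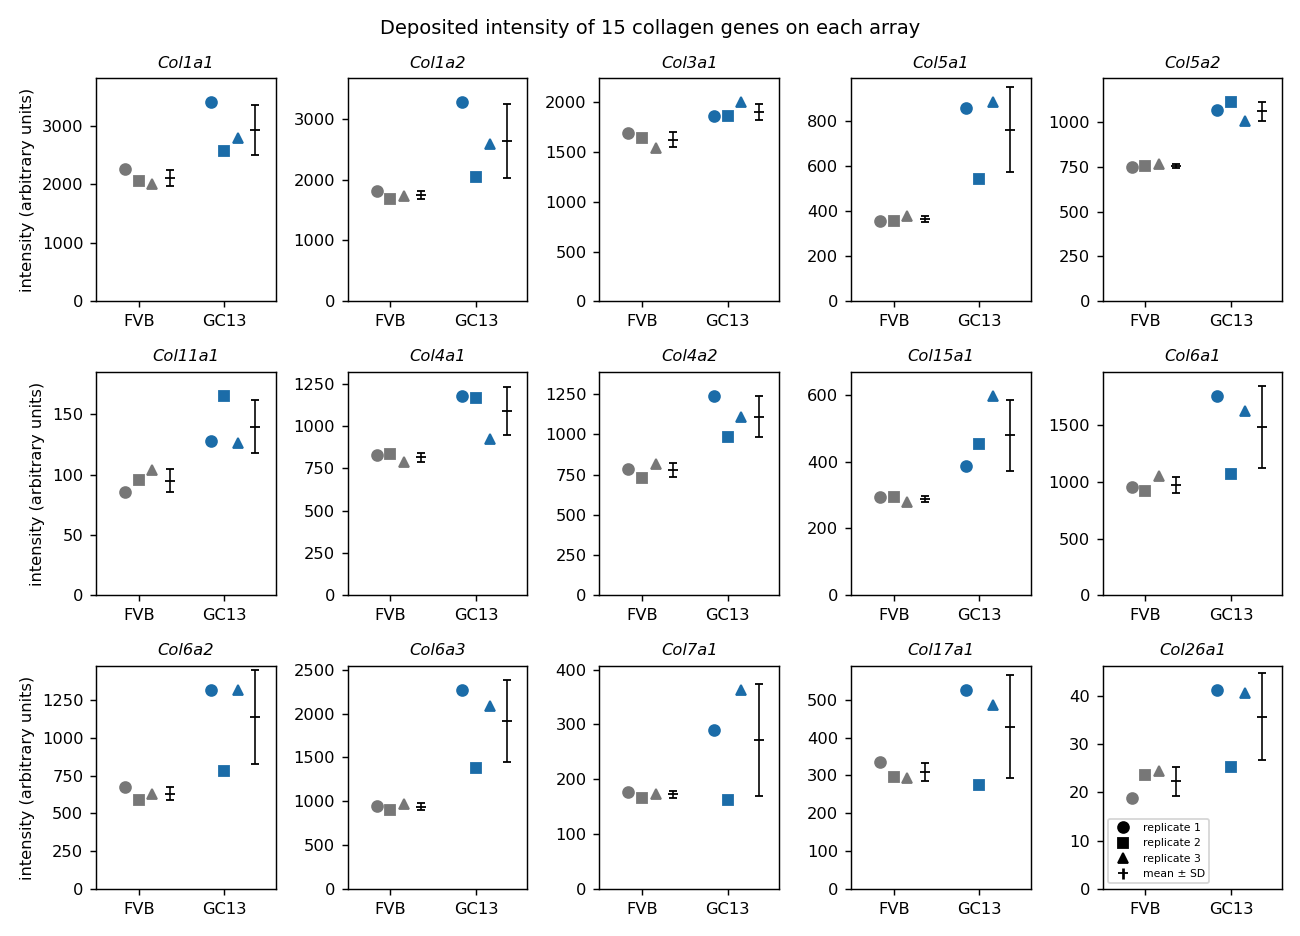
Deposited intensity (arbitrary units, linear axis from 0) of 15 collagen genes on each array. Grey points are FVB, blue points GC13, the marker shape gives the replicate and the bar at the right of each group the mean ± SD (n = 3); GC13 replicate 2 (squares) lies lowest of its group for the 3 type VI genes, Col7a1 and Col17a1, and highest for Col5a2 and Col11a1.

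Type I collagen, a trimer of chains encoded by Col1a1 and Col1a2, is the bulk of the dermal fibril. Col1a1 (Entrez 12842) stood at 2256, 2056 and 2006 on FVB arrays, against 3405, 2578 and 2793 on GC13 arrays. The groups did not overlap, and the fold was 1.45 (log2 fold change 0.54, standard error, SE, 0.21, limma adjusted p = 0.281). A second Col1a1 probe set gave 871, 879 and 1093 in the FVB group and 1853, 1656 and 1562 in the GC13 group. It also parted the groups, and its log2 fold change was 0.91 (SE 0.22, limma adjusted p = 0.131). Without GC13 replicate 2 the limma adjusted p of this second probe set was 0.036, and that of the first was 0.0961. Col1a2 (Entrez 12843) measured 1809, 1683 and 1734 across FVB and 3271, 2047 and 2591 across GC13. Its fold was 1.56 (log2 fold change 0.64, SE 0.21, limma adjusted p = 0.224). Both chains of type I were thus above every FVB array on every GC13 array in the probe sets that stood for them. In the deposited intensities of these, replicate 2 was the lowest GC13 array, while in the second Col1a1 probe set replicate 3 was. After centring, replicate 3 was the lowest for both Col1a1 probe sets, at 0.33 and 0.65 above the FVB mean (log2). For Col1a2, replicates 2 and 3 were then nearly equal, at 0.50 and 0.49. A second Col1a2 probe set stood at 120, 125 and 198 on FVB arrays, against 218, 114 and 309 on GC13 arrays. In these deposited intensities replicate 2 lay below all FVB arrays, and after centring its difference from the FVB mean was -0.06 (log2).

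Type III collagen, a homotrimer abundant in young skin and built into the same fibrils as type I, had 3 tested probe sets. The one that stood for Col3a1 (Entrez 12825), chosen for the highest mean over the arrays, gave 1690, 1639 and 1544 in the FVB group and 1859, 1860 and 2000 in the GC13 group. The groups did not overlap, and the fold was 1.23 (log2 fold change 0.30, SE 0.20, limma adjusted p = 0.495). The other probe sets of Col3a1 had log2 fold changes of 0.41 and 0.28. In the deposited intensities the groups of the second of these overlapped, and after centring those of both did. Without replicate 2, where both were highest, these probe sets had 0.16 and 0.07, against 0.23 for the probe set that stood for the gene. Whether the difference for type III is smaller than that for type I was not tested.

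Type V collagen sits inside the type I fibril and limits its diameter. Col5a1 (Entrez 12831) had the smallest p of the collagen genes, at 356, 357 and 380 in the FVB group and 858, 546 and 885 in the GC13 group. All GC13 arrays lay far above the narrow FVB range, replicate 2 least so. The mean was 364 ± 13.6 in FVB and 763 ± 189 in GC13 (SD, n = 3). The fold was 2.15 (log2 fold change 1.10, SE 0.21; adjusted p = 0.0764 in limma), and the limma adjusted p was 0.0082 without GC13 replicate 2. A second probe set of Col5a1 gave another picture, at 160, 177 and 141 in the FVB group and 168, 134 and 156 in the GC13 group. Its groups overlapped and its log2 fold change was 0.01 (SE 0.20), so the result for Col5a1 depends on which probe set is read. The mean of both gave a log2 fold change of 0.56 (limma adjusted p = 0.221). Col5a2, the partner chain, measured 746, 751 and 764 across FVB and 1065, 1108 and 1003 across GC13. Its groups were well apart and replicate 2 was the highest array (log2 fold change 0.56, SE 0.21, limma adjusted p = 0.265).

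Type XI collagen is close to type V and was named for cartilage fibrils, though Col11a1 is also made outside cartilage. Col11a1 stood at 85.4, 95.5 and 104 on FVB arrays, against 128, 165 and 126 on GC13 arrays. The groups did not overlap (log2 fold change 0.61, SE 0.25, limma adjusted p = 0.296). Without replicate 2 the log2 fold change was 0.39. Col11a2 was dim, at 11.5, 3.88 and 4.1 in the FVB group and 6.2, 15.5 and 6.86 in the GC13 group, and its groups overlapped. Its log2 fold change was 0.54, or 0.09 without replicate 2. Col2a1, the main cartilage collagen, was dim too, at 11.1, 7.41 and 11 in the FVB group and 25.2, 4.95 and 23.8 in the GC13 group. Replicates 1 and 3 lay above every FVB array and replicate 2 below them. Without replicate 2 its log2 fold change went from 0.61 to 1.16 (limma adjusted p = 0.0219). Without replicate 1 or 3 it was 0.29 or 0.38. Of 11 cartilage and bone markers 6 were on the array and 1 was bright enough to be tested, the aggrecan gene Acan. Acan gave 42.3, 32.9 and 43.4 in the FVB group and 28.2, 37.7 and 39 in the GC13 group, with overlapping groups. No deposited intensity is exactly 0 and no detection calls were used, so whether such dim signals lie above background is unknown. As a group, all 8 fibril-forming genes lay above 0, beside 57.4% of all tested probe sets, and none passed. In the deposited intensities 6 did not overlap between the groups, all higher in GC13, beside 10.6% of all tested probe sets. The median log2 fold change was 0.59.

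The RefSeq promoter windows of 4 members are shown because these genes carry the differences described here: Col5a1 and Col6a3 had the smallest p, Col1a2 is a type I chain, and Col4a2 shares its start region with Col4a1. Each window runs from 250 bases before to 50 bases after an annotated start, on build GRCm38.p6, written 5′ to 3′ on the strand of the gene. Capitals mark the TATA box TATAAA, the motif CCAAT and the GC box motif, written GGGCGG, on either strand. No match overlapped another in the 4 windows.
Col1a2, chr6:4505368-4505667, plus strand: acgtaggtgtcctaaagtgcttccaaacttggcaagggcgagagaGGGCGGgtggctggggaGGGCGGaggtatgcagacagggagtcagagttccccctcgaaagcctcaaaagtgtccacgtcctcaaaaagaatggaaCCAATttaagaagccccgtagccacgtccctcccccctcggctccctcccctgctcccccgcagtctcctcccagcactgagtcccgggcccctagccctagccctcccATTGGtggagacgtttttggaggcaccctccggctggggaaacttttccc
Col5a1, chr2:27886175-27886474, plus strand: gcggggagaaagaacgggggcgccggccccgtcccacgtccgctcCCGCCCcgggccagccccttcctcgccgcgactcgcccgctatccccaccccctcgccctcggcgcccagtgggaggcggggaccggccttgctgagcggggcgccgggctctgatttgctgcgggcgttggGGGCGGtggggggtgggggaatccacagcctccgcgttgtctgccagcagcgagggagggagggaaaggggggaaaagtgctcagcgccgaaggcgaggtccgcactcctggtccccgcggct
Col6a3, chr1:90843922-90844221, minus strand: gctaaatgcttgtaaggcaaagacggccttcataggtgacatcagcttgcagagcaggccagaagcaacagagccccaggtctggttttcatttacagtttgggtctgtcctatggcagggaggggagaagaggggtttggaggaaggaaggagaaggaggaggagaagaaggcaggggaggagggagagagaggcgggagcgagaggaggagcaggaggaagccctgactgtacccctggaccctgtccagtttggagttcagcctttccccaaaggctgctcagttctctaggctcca
Col4a2, chr8:11312555-11312854, plus strand: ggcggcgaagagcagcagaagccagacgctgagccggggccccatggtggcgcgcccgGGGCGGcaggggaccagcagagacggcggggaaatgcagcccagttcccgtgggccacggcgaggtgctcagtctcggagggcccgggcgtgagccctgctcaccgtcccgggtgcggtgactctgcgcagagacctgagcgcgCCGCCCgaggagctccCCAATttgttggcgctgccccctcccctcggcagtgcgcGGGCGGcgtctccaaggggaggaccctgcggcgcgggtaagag
The Col1a2 window held 2 CCAAT boxes and 2 GC boxes, the Col5a1 window 2 GC boxes, the Col4a2 window 1 CCAAT box and 3 GC boxes, and the Col6a3 window none of the motifs. Of 31 collagen genes on the array 22 had a window in the table. Of their 25 windows, 20% held TATAAA, 36% CCAAT and 52% GGGCGG, beside 13.6%, 37.4% and 35.7% of all 32851 windows of the same length. A match is a description of letters only.

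Type VI collagen forms beaded microfilaments around fibroblasts, muscle fibres and nerves from 3 different chains, and all of its measured chains were higher on every GC13 array. Col6a1 (Entrez 12833) measured 955, 917 and 1050 across FVB and 1758, 1074 and 1630 across GC13. The log2 fold change was 0.65 (SE 0.21, limma adjusted p = 0.213). Col6a2 (Entrez 12834), its neighbour on chromosome 10, stood at 676, 590 and 627 on FVB arrays, against 1316, 780 and 1319 on GC13 arrays. Its fold was 1.85 (log2 fold change 0.88, SE 0.22, limma adjusted p = 0.14). Col6a3 (Entrez 12835), the longest chain, gave 947, 899 and 970 in the FVB group and 2271, 1385 and 2086 in the GC13 group. The means were 939 ± 36.5 for FVB and 1914 ± 467 for GC13 (SD, n = 3), and the fold was 2.1 (log2 fold change 1.07, SE 0.21, limma adjusted p = 0.0826). In each of the 3 chains replicates 1 and 3 were alike and replicate 2 lay between them and the FVB arrays. Without replicate 2 all 3 passed, with log2 fold changes of 0.78, 1.04 and 1.19 for Col6a1, Col6a2 and Col6a3 (limma adjusted p = 0.0295, 0.0145 and 0.0109). Of 17 alternative settings, 5 had Col6a3 past the threshold, and the same number had Col5a1 past it. A second Col6a1 probe set measured 289, 294 and 247 across FVB and 305, 435 and 313 across GC13, where replicate 2 was the highest array, so the order of the GC13 arrays differed between probe sets of this gene.

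Col7a1 encodes type VII collagen, the anchoring fibril whose loss causes blistering, and stood at 177, 166 and 174 on FVB arrays, against 289, 162 and 363 on GC13 arrays. In these deposited intensities replicate 2 lay below the FVB arrays while replicates 1 and 3 lay well above them. After centring, replicate 2 lay 0.18 above the FVB mean (log2) and above every FVB array. The log2 fold change was 0.65 (SE 0.25, limma adjusted p = 0.286), and 0.88 without replicate 2 (limma adjusted p = 0.0205). Col26a1 gave 18.9, 23.6 and 24.4 in the FVB group and 41.2, 25.2 and 40.6 in the GC13 group. Its groups were separated by a small gap at replicate 2, and the log2 fold change was 0.68 (SE 0.21, limma adjusted p = 0.204). All 5 genes of types VI, VII and XXVI lay above 0, beside 57.4% of all tested probe sets, with a median of 0.68. Without replicate 2 all 5 passed as higher, beside 6% of all tested probe sets.

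Col17a1, the hemidesmosomal collagen of basal keratinocytes, resembled Col7a1. It measured 336, 297 and 294 across FVB and 526, 274 and 487 across GC13. In these deposited intensities replicate 2 again lay below the FVB arrays. After centring, replicate 2 lay 0.10 above the FVB mean (log2), and the groups overlapped. The log2 fold change of Col17a1 was 0.49 (SE 0.24, limma adjusted p = 0.377), and 0.69 without replicate 2 (limma adjusted p = 0.0423). In the deposited intensities 3 of the 5 tested basal keratinocyte markers had replicate 2 as the lowest array (Itgb4, Lamb3 and Cdh3). Itga6 and Trp63 had it as the highest. Itgb4, the integrin chain that binds laminin at the hemidesmosome, stood at 207, 208 and 174 on FVB arrays, against 411, 162 and 278 on GC13 arrays. Lamb3, a chain of that laminin, gave 159, 138 and 134 in the FVB group and 193, 76.9 and 234 in the GC13 group. The summed intensity of the 5 tested markers (10 listed, 8 on the array) ranged from 1056 to 1143 in FVB and was 1372, 997 and 1287 on GC13 replicates 1, 2 and 3. Their part in the values of Col7a1 and Col17a1 was not tested. The other transmembrane gene, Col13a1, measured 8.73, 12.2 and 17.3 across FVB and 18.4, 12.1 and 6.91 across GC13. The log2 fold change was 0.00, below 0 without centring (-0.07) and with quantile normalization (-0.11).

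**Figure D2:**
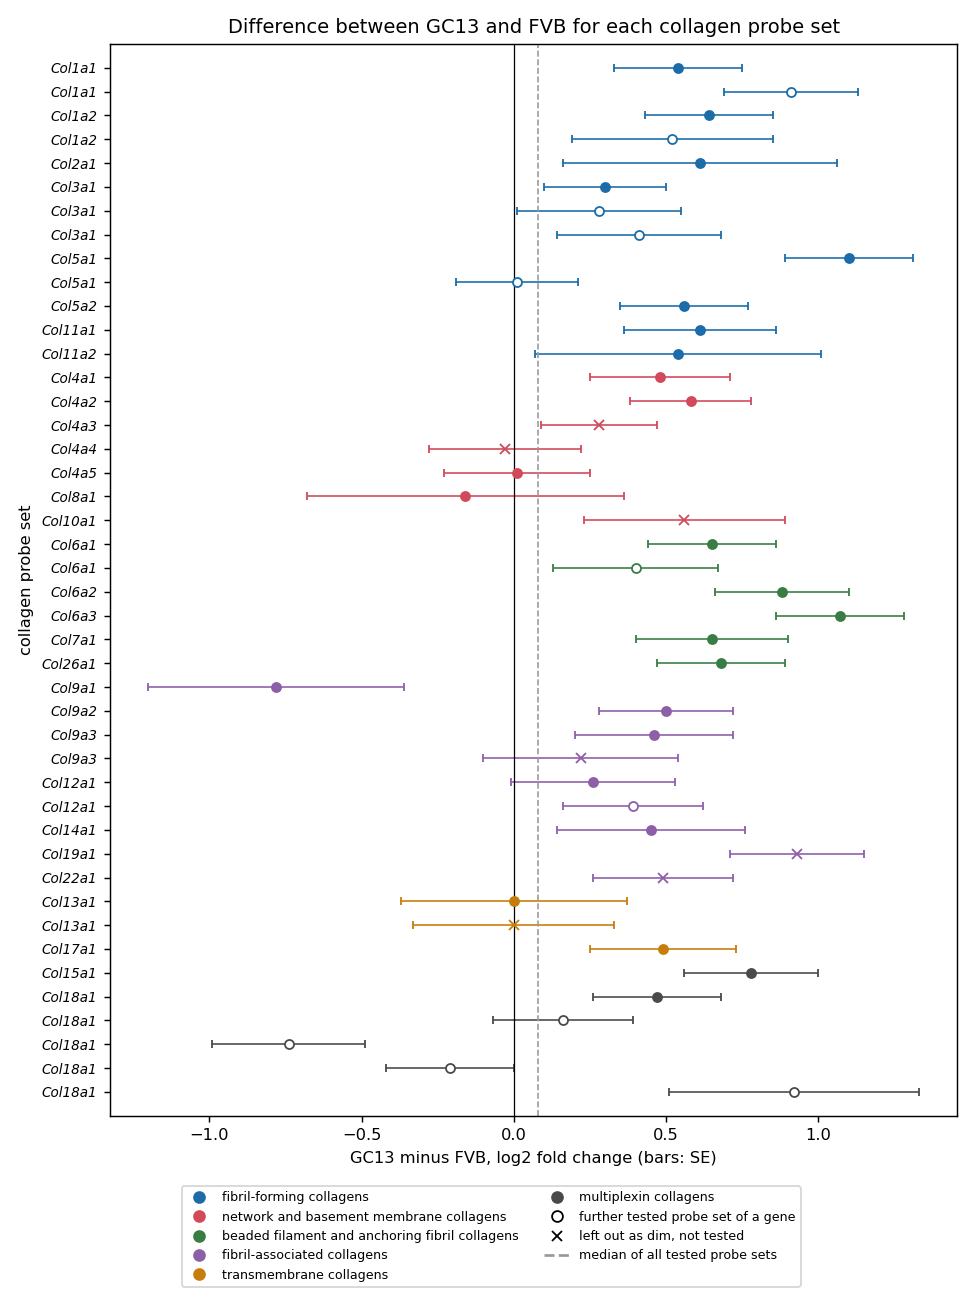
GC13 minus FVB log2 fold change of each of the 44 collagen probe sets with its SE, coloured by collagen group. Filled points stand for a gene, open points are its further tested probe sets, crosses were too dim to be tested, and the dashed line is the median of all tested probe sets (0.08); nearly all filled points lie right of it, while the probe sets of Col18a1 spread from -0.74 to 0.92.

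Type IV collagen, the network of basement membranes, was represented by its common chains Col4a1 and Col4a2, which lie side by side on chromosome 8. Their RefSeq windows run in opposite directions and share 78 bases. Col4a1 stood at 828, 837 and 787 on FVB arrays, against 1178, 1164 and 924 on GC13 arrays. Its log2 fold change was 0.48 (SE 0.23, limma adjusted p = 0.374). Col4a2 gave 787, 729 and 818 in the FVB group and 1238, 982 and 1111 in the GC13 group. The log2 fold change was 0.58 (SE 0.20, limma adjusted p = 0.229). For both chains every GC13 array exceeded every FVB array. In the deposited intensities the lowest GC13 array was replicate 3 for Col4a1 and replicate 2 for Col4a2. After centring it was replicate 3 for both chains, at 0.10 and 0.44 above the FVB mean (log2). Col4a5, an X-linked chain of specialised basement membranes, did not share this, at 37.3, 42.6 and 53 in the FVB group and 55.8, 29.9 and 44 in the GC13 group. Its log2 fold change was 0.01, or -0.06 without centring. Col8a1, a short-chain network collagen of vessels and cornea, was dim and measured 8.32, 11 and 5.26 across FVB and 18, 4.36 and 2.71 across GC13. Its log2 fold change of -0.16 had an SE of 0.52.

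The multiplexins, types XV and XVIII, are proteoglycan-bearing collagens of basement membranes around vessels, muscle and epithelia. Col15a1 stood at 294, 294 and 278 on FVB arrays, against 388, 453 and 597 on GC13 arrays. The groups were apart, and replicate 1 was the lowest GC13 array. Its fold was 1.71 (log2 fold change 0.78, SE 0.22, limma adjusted p = 0.168). Col18a1, whose C-terminal fragment is endostatin, was read by 5 tested probe sets that disagreed. The one that stood for the gene gave 276, 261 and 297 in the FVB group and 443, 326 and 337 in the GC13 group (log2 fold change 0.47, SE 0.21, limma adjusted p = 0.348). Another measured 186, 170 and 144 across FVB and 126, 63 and 102 across GC13. There all GC13 arrays lay below all FVB arrays, and the log2 fold change was -0.74 (SE 0.25, limma adjusted p = 0.233). The other 3 had log2 fold changes of 0.92, -0.21 and 0.16 with overlapping groups, and the mean of all 5 gave 0.12 (limma adjusted p = 0.822). The RefSeq table lists 2 start sites for Col18a1, and which transcripts each probe set reads is unknown here.

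Fibril-associated collagens decorate the surface of fibrils and were mostly dim. Type IX is known from cartilage. Col9a1 lay below 0, at 23.5, 34.5 and 38.1 in the FVB group and 7.62, 23.1 and 24.2 in the GC13 group (log2 fold change -0.78, SE 0.42, limma adjusted p = 0.414). The groups overlapped, and replicate 1 was far below the other arrays. Without it the log2 fold change was -0.29. Col9a2 stood at 36, 48 and 43 on FVB arrays, against 50.5, 46.8 and 78.7 on GC13 arrays. Col9a3 gave 30, 35.3 and 32.5 in the FVB group and 38.6, 30.2 and 68.3 in the GC13 group. Their log2 fold changes were 0.50 and 0.46, so the values of the type IX chains lay on both sides of 0. Without GC13 replicate 3 that of Col9a3 was 0.22. The 2 tested probe sets of Col12a1 had log2 fold changes of 0.26 and 0.39, and Col14a1, made in dense connective tissue, had 0.45, or 0.17 without replicate 2. Col14a1 was narrow in FVB, at 118, 116 and 116, and spread in GC13, at 165, 198 and 108. In this group 4 of 5 genes lay above 0, beside 57.4% of all tested probe sets, with a median of 0.45. None passed with or without replicate 2.

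Genes too dim to be tested were Col4a3, Col4a4, Col10a1, Col19a1 and Col22a1. Col19a1, next to Col9a1 on chromosome 1, measured 2.99, 4.29 and 3.3 across FVB and 7.45, 5.79 and 11.4 across GC13, and its groups did not overlap. Col10a1, the collagen of hypertrophic cartilage, stood at 2.37, 3.59 and 5.65 on FVB arrays, against 6.81, 2.62 and 10.7 on GC13 arrays. Col4a3, Col4a4 and Col22a1 had intensities between 0.558 and 3.01 on all arrays. Whether these signals lie above background is unknown.

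**Figure D3:**
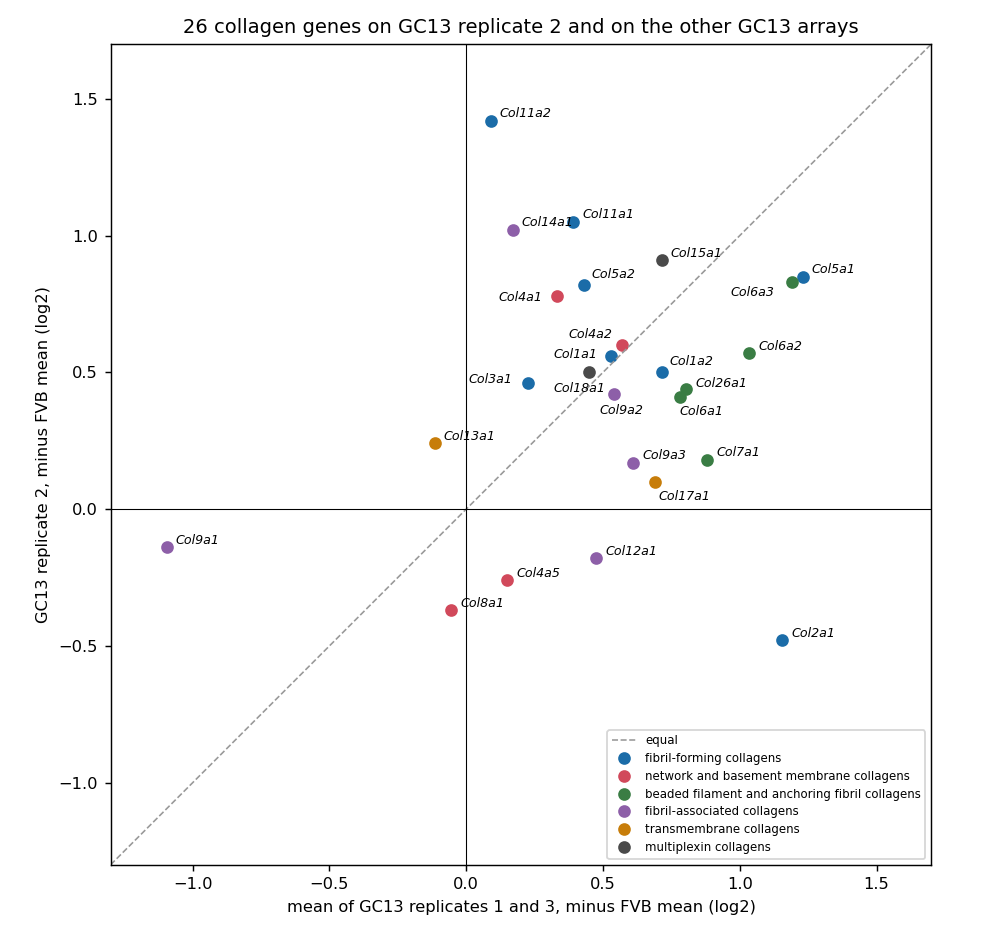
Each of the 26 tested collagen genes by its log2 difference from the FVB mean, for the mean of GC13 replicates 1 and 3 (x axis) and for GC13 replicate 2 (y axis), both centred per array. Points below the dashed line of equality, among them types VI, VII and XVII and Col2a1, had lower values on replicate 2 than on the mean of the others, and points above it, among them Col11a1, Col14a1 and Col5a2, had higher values.

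GC13 replicate 2, whose Gapdh ratio was 9.58, did not stand in the same place among the GC13 arrays for all collagens. In the deposited intensities 6 of 26 genes had replicates 1 and 3 above every FVB array and replicate 2 not, beside 18% of all tested probe sets, a share near that of the collagens. The 6 were Col2a1, Col7a1, Col9a2, Col9a3, Col12a1 and Col17a1. For the 5 genes of types VI, VII and XXVI the median log2 difference from the FVB mean was 0.89, 0.44 and 0.98 on replicates 1, 2 and 3. For the 8 fibril-forming genes it was 0.63, 0.69 and 0.33, so replicate 2 was not the lowest there. On replicate 2 alone Col11a1 lay 1.05 above the FVB mean, Col14a1 1.02 and Col11a2 1.42, against 0.32, -0.19 and 0.09 on replicate 3. The difference between these groups of collagens was not tested.

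Genes that make, bind or break down collagen gave a mixed picture, and none of those tested passed in either direction in the main setting. With array weights some did, among them Lox as higher and Timp2 as lower (limma adjusted p = 0.0063 and 0.00195). In that setting 3850 of all 9316 tested probe sets passed. GC13 replicate 1 then had a weight of 4.117, against 0.107 and 0.329 for replicates 2 and 3. Counts above 0 in the lists below stand beside 57.4% of all tested probe sets. Of 19 listed genes of collagen synthesis and folding 12 were tested, 9 above 0 and 3 below, with a median of 0.27. P4ha1, a catalytic subunit of prolyl 4-hydroxylase, which stabilises the helix, gave 35.2, 33.3 and 24.6 in the FVB group and 62, 41.7 and 43.8 in the GC13 group (log2 fold change 0.70, limma adjusted p = 0.248). Sec23a, a coat protein needed to export procollagen, measured 252, 233 and 223 across FVB and 342, 353 and 363 across GC13 (log2 fold change 0.65, limma adjusted p = 0.203). For both, every GC13 array was above every FVB array. P4ha2, another catalytic subunit, had a log2 fold change of 0.47 with overlapping groups.

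Processing and cross-linking genes had 5 of 12 listed members tested, 4 above 0, with a median of 0.44. Lox, the lysyl oxidase that cross-links fibrils, stood at 170, 173 and 144 on FVB arrays, against 269, 274 and 202 on GC13 arrays (log2 fold change 0.67, limma adjusted p = 0.274). Pcolce, an enhancer of procollagen C-proteinase, gave 202, 195 and 231 in the FVB group and 461, 156 and 365 in the GC13 group. In the deposited intensities replicate 2 lay below the FVB arrays for Pcolce. Without replicate 2 the log2 fold change went from 0.58 to 0.94 (limma adjusted p = 0.0291). Bmp1, the C-proteinase itself, had a log2 fold change of 0.44. Of the fibril-associated proteins 13 of 14 listed were tested, 12 above 0, with a median of 0.27. After centring, their median log2 difference from the FVB mean was 0.33, 0.52 and -0.11 on GC13 replicates 1, 2 and 3. In the deposited intensities all GC13 arrays lay above all FVB arrays for 1 of the 13, beside 10.6% of all tested probe sets. In this list Tnxb, the tenascin of elastic dermis, measured 249, 223 and 257 across FVB and 445, 211 and 502 across GC13 (log2 fold change 0.65, limma adjusted p = 0.323). Fn1, the fibronectin gene, had 0.62 and Thbs2, a thrombospondin gene, 0.45.

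The values of collagen receptor genes and of the degradation list lay on both sides of 0. Of 10 listed receptor genes 5 were tested, 3 above 0 and 2 below, with a median of 0.12. Ddr1, a tyrosine kinase receptor for collagen on epithelial cells, stood at 244, 227 and 226 on FVB arrays, against 151, 103 and 146 on GC13 arrays. All GC13 arrays lay below all FVB arrays, and the log2 fold change was -0.74 (SE 0.20, limma adjusted p = 0.154). Without replicate 2 Ddr1 passed as lower (limma adjusted p = 0.0382). Ddr2, the kinase receptor of mesenchymal cells, was dim and had a log2 fold change of 0.66. Mrc2, which takes up collagen for breakdown, had -0.80 and turned to 0.03 with array weights. Of 12 listed genes of degradation and its control 11 were on the array and 6 tested, 2 above 0 and 4 below, with a median of -0.38. Of these 6, only Mmp3, Mmp14 and Ctsk encode proteases, while Timp1, Timp2 and Timp3 encode inhibitors of matrix metalloproteinases. Mmp14 had a log2 fold change of 0.31, Timp1 0.25 and Timp3 -0.22, or 0.15 without GC13 replicate 3. Timp2 gave 45.1, 44 and 44.3 in the FVB group and 22.8, 9.83 and 30.9 in the GC13 group (log2 fold change -1.05, SE 0.30; adjusted p = 0.18 in limma), and passed as lower without replicate 2 (limma adjusted p = 0.0346). Ctsk, a lysosomal collagenase, measured 117, 124 and 112 across FVB and 95.3, 54.7 and 83.9 across GC13, again with no overlap (log2 fold change -0.54, limma adjusted p = 0.296). Mmp3, a stromelysin gene, was dim at -0.69.

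**Figure D4:**
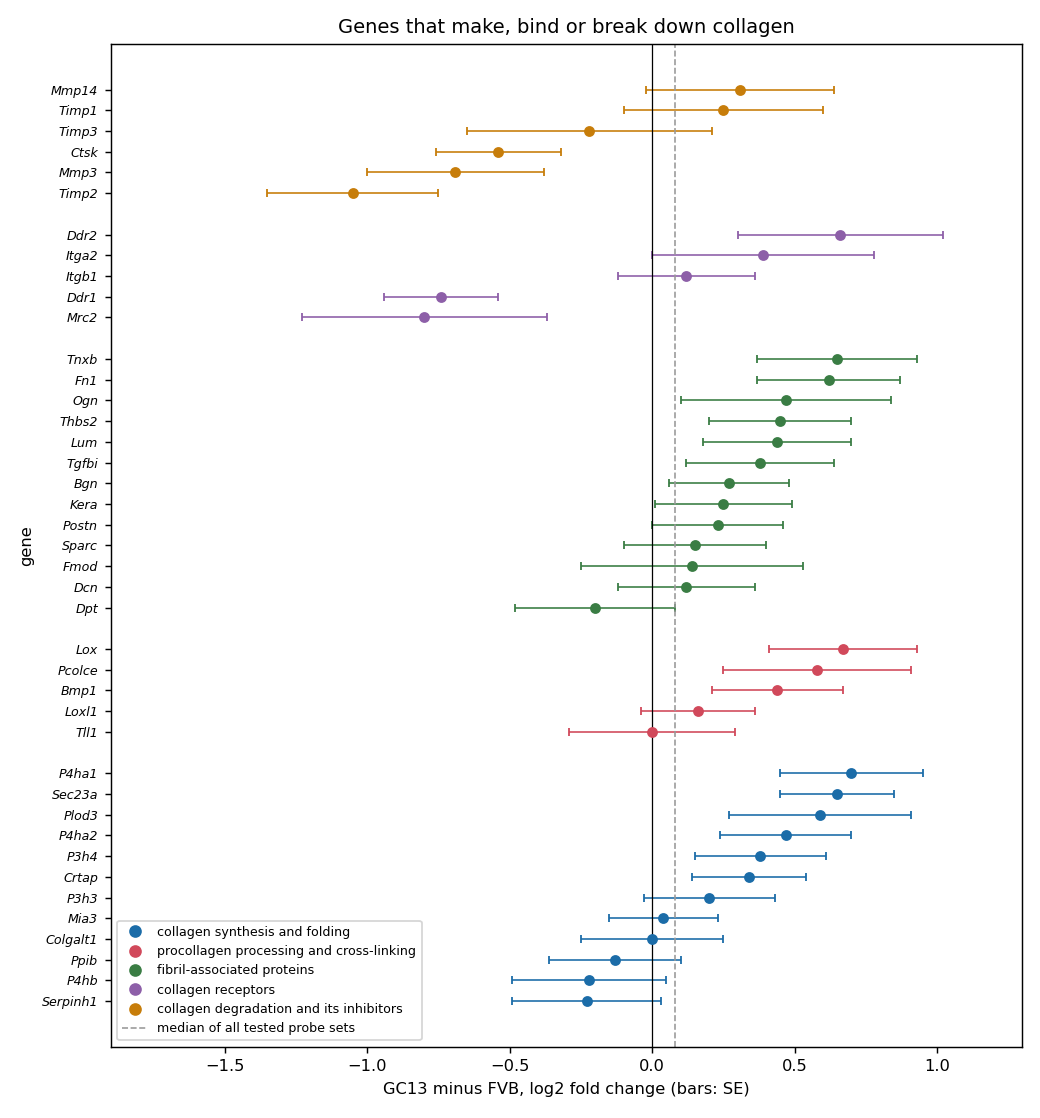
GC13 minus FVB log2 fold change with SE of the tested genes of collagen synthesis, processing, fibril association, receptors, and degradation and its inhibitors. The dashed line is the median of all tested probe sets (0.08). Above 0 lie 12 of 13 fibril-associated genes, beside 57.4% of all tested probe sets. The degradation list, 3 proteases and 3 inhibitors of matrix metalloproteinases, has members on both sides of 0.

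The summed markers of several cell types of skin were also higher in GC13. Counts of markers above 0 stand beside 57.4% of all tested probe sets. Of 13 fibroblast markers all were tested and 11 lay above 0, with a median of 0.36, and none passed in the main setting. Their summed deposited intensity was 1051, 1030 and 1007 in FVB and 1863, 1206 and 1769 in GC13, so replicate 2 was nearest to FVB in this sum. After centring, the median log2 difference of these markers from the FVB mean was 0.61, 0.42 and 0.33 on GC13 replicates 1, 2 and 3. By that measure replicate 3 was nearest to FVB. Twist1, a transcription factor gene of mesenchyme, stood at 79.5, 78.9 and 69.2 on FVB arrays, against 177, 139 and 167 on GC13 arrays (log2 fold change 1.13, limma adjusted p = 0.0643). Pdgfra, a growth factor receptor gene of fibroblasts, gave 284, 273 and 228 in the FVB group and 609, 291 and 526 in the GC13 group (log2 fold change 0.87, limma adjusted p = 0.194). Without replicate 2 both passed (limma adjusted p = 0.0129 and 0.0204). With all arrays Twist1 passed with a pseudocount of 16, a pseudocount of 32, a variance trend and array weights (limma adjusted p = 0.0276, 0.0229, 0.0472 and 0.000548). Pdgfra passed with array weights (limma adjusted p = 0.00117). Of all 9316 tested probe sets, 83, 116, 53 and 3850 passed with a pseudocount of 16, a pseudocount of 32, a variance trend and array weights. The mean of the probe sets of Pdgfra gave 0.53 with all arrays (limma adjusted p = 0.252). Endothelial markers, 9 of 10 tested and 7 above 0, summed to between 666 and 800 in FVB and to between 933 and 1200 in GC13. Within that list Eng had a log2 fold change of 1.02 and Cldn5 -0.65. Skeletal muscle markers, 12 of 13 tested and 10 above 0, summed to between 2813 and 2942 in FVB and to between 3149 and 3561 in GC13. Such a sum is set mostly by its brightest genes. Here Acta1 measured 1746, 1830 and 1684 across FVB and 1855, 1850 and 2081 across GC13 (log2 fold change 0.21). In the same list Myh3 had a log2 fold change of 1.04 and Casq1 0.94, but Myh4 had -1.20. All GC13 arrays lay below all FVB arrays for Myh4 in the deposited intensities, though not after centring. Without replicate 2 Myh4 passed as lower (log2 fold change -1.71, limma adjusted p = 0.00685). The mean of the probe sets of Myh4 gave -0.06 with all arrays (limma adjusted p = 0.928), so its result depends on which probe set is read.

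Adipocyte markers, 7 of 9 tested and 6 above 0, summed to between 1993 and 2075 in FVB and to between 2438 and 2967 in GC13. Schwann cell markers, 6 of 9 tested and 4 above 0, summed to between 1182 and 1241 in FVB and to between 1380 and 1545 in GC13. Smooth muscle and pericyte markers, 8 of 9 tested and 4 above 0, overlapped between the groups, from 971 to 1022 in FVB and from 911 to 1012 in GC13. Leukocyte markers, 5 of 8 tested and 2 above 0, overlapped too, from 289 to 312 in FVB and from 244 to 318 in GC13. The part of a changed mix of cells in the collagen values was not tested.

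**Figure D5:**
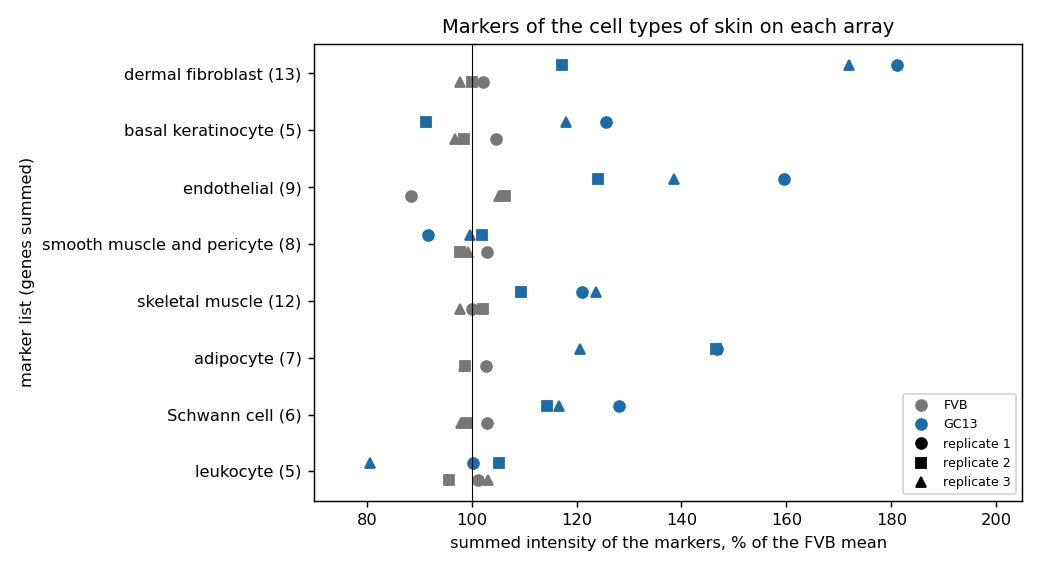
Summed deposited intensity of the tested markers of each cell type on each array, as a percent of the FVB mean (number of genes summed in brackets; grey FVB, blue GC13, shape for the replicate). The fibroblast sum was at 181%, 117% and 172% on GC13 replicates 1, 2 and 3, and the smooth muscle and leukocyte sums overlap between the groups.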

How the data were processed

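The authors deposited 1 table of intensities on a linear scale, 6 arrays by 12488 probe sets, all above 0. The labels name no software. The mean of each array without its highest and lowest 2% was 100.05 or 100.06, so the deposited values are scaled per array. Intensities summed to between 1626361 and 1736141 per array. The 66 control probe sets served only for the 3′ over 5′ ratios. The rest were set on the log2(intensity + 2) scale, centred on each array's median (medians differed by up to 0.345), and the 25% with the lowest mean over all arrays were left out. A fold change on this scale understates that of dim genes. Names came from the platform annotation, updated by Entrez identifier through RefSeq (GRCm38.p6), which found all 44 collagen probe sets. Several probe sets of a gene were represented by the one with the highest mean. GC13 was compared with FVB in limma 3.58.1 (R 4.3.3, lmFit and eBayes, two-sided), tested on simulated data. The number of arrays limits the precision.

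The members, gene lists and tests were chosen with earlier results of these data known. Values in every sample are given for collagen probe sets past the threshold, for the 10 collagen genes with the smallest p, for up to 3 further genes of each collagen group, for genes whose probe sets differ in sign, and for Col1a1, Col1a2, Col3a1, Col7a1 and Col17a1. Up to 4 genes with the smallest p came from each other list. Col11a2, Col14a1, Col10a1, Col19a1, Myh4, Acta1, Mmp14, Timp1 and Timp3 were given with values after these were seen. Alternatives were other pseudocounts, filters, scalings, a variance trend, array weights, a replicate block, the mean of a gene's probe sets, and leaving out each array.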

Additional observations from a re-analysis of the deposited data

How the results depend on the processing

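The count of collagen genes past the threshold was 0 of 26 in the main setting and 2 with a pseudocount of 16, with a pseudocount of 32 and with a variance trend; in each of these cases they were Col5a1 and Col6a3. Of 37 collagen probe sets, 2, 3 and 2 passed in the same settings. Array weights gave GC13 replicates 2 and 3 weights of 0.107 and 0.329 and GC13 replicate 1 a weight of 4.117, and then 19 collagen genes, 23 collagen probe sets and 3850 of all probe sets passed. Over all tested probe sets, 44 passed in the main setting, 83 and 116 with pseudocounts of 16 and 32, 23 with a filter on the lowest 50%, 28 without centring (2 higher and 26 lower, against 8 and 36) and 78 with the replicate block. Leaving out 1 array gave between 0 and 9 collagen genes, between 0 and 10 collagen probe sets and between 0 and 1379 of all probe sets. The highest counts came without GC13 replicate 2. Without FVB replicate 1, 2 or 3 the count over all probe sets was 0, without GC13 replicate 1 it was 9, and without GC13 replicate 3 it was 11. The causes were not tested. A stricter filter also tests fewer probe sets, and leaving out an array leaves fewer samples.

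The median over collagen genes stayed between 0.41 and 0.65 and the number above 0 between 22 and 25 of 26 over the alternatives that kept all 26. With a filter on the lowest 50%, 19 of the 19 remaining genes lay above 0. Of 435 values of the 26 collagen genes under 17 alternatives, 384 kept direction and side of the threshold, 34 came to pass it (28 of them with array weights or without GC13 replicate 2) and 17 changed sign. Of 454 values of 27 genes of the other lists, 417 kept both, 34 came to pass the threshold (30 in the same 2 settings, and 4 for Twist1 and Casq1 in others) and 3 changed sign. Col13a1 was just below 0 (-0.00) with a pseudocount of 1 and had -0.07 without centring, -0.11 with quantile normalization, and between -0.26 and 0.39 with 1 array left out. Col4a5 had -0.06 without centring and between -0.17 and 0.15 with 1 array left out. Col8a1 had 0.02 and 0.03 with pseudocounts of 16 and 32, 0.76 with array weights, and between -0.76 and 0.34 with 1 array left out. Col11a2 had -0.02 and Mrc2 0.03 with array weights. Timp3 had between -0.71 and 0.15 with 1 array left out, and Lamb3 between -0.08 (without GC13 replicate 3) and 0.54 with 1 array left out. FVB and GC13 arrays of the same number had correlations of deviations from their group means of -0.068, 0.180 and 0.357. FVB replicate 1 correlated best with GC13 replicate 2, while FVB replicates 2 and 3 correlated best with the GC13 array of the same number. With 3 arrays in a group this cannot decide whether the numbers pair the samples. With the replicate block 0 collagen genes passed. Signal over background is unknown, which limits dim probe sets.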
